A study of Homo sapiens with 20 samples.

Results

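The 4 arrays of cells given 3 ng of doxycycline for 24 h were compared with the 4 arrays of cells given 0 ng and collected at the same 24 h. These are 8 of the 20 arrays of the series, and they were chosen by dose and time alone. All of them hold total RNA of B5/589, an immortalized line of human mammary epithelial cells that carries a p53 transgene switched on by doxycycline. The uninduced cells carry the same transgene, were plated and fed in the same way, and grew in serum with epidermal growth factor. The labels give the dose in ng without a volume, and do not say whether the line is 1 clone or whether the 4 arrays of a dose stem from separate cultures. The p-values therefore measure a spread between arrays that may be technical. It was estimated within the 5 groups of all 20 arrays. The transcript of the transgene is not analysed here, so its induction is seen through p53 target genes alone. The 4 arrays of 5 ng for 24 h were used where the low dose was set directly against the higher one.

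p53 is a transcription factor that is kept low in unstressed cells by the ubiquitin ligase MDM2. Once it accumulates, it binds pairs of short decamer motifs near its target genes and activates genes of cell cycle arrest, cell death, DNA repair and metabolism. Its target CDKN1A (p21) inhibits cyclin-dependent kinases. RB family proteins then stay active and, within the DREAM complex, repress genes of DNA replication through E2F sites and genes of mitosis through CHR elements (cell cycle genes homology regions).

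Each value is a log2 signal of 1 transcript cluster, which gathers the probes of 1 transcription unit. The medians of the 3 ng arrays lay between 4.74 and 5.01, and those of the 0 ng arrays between 4.94 and 5.28, with 0 ng array 4 the brightest (arrays are numbered by replicate). Over all 18417 genes the changes had a median of -0.235 on the deposited scale, against 0.08 once the arrays were quantile normalized, and the shift moved with brightness. With the genes in 5 bins of equal size, the median of the dimmest bin was -0.12 as deposited and 0.13 after quantile normalization, and that of the brightest bin was -0.41 and 0.03. Each result was therefore tested on both scales. Below, a gene "rose" or "fell" only if its Benjamini-Hochberg adjusted p in limma, over all 18417 genes, was under 0.05 in the same direction on both.

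Marker lists were read for the line itself and for other cells. Over the 11 basal markers the mean per array ran from 7.77 to 8.07 at 3 ng, against 7.84 to 8.25 at 0 ng. Of these, smooth muscle actin ACTA2 (0.55) and the myosin kinase MYLK (0.69) rose and the peptidase MME (-0.82) fell. Without array 2 of either dose 1 basal marker rose, and without 0 ng array 1 or 4 or 3 ng array 3 or 4 none fell. The basal keratins KRT5 and KRT14 averaged 11.9 and 11.3 at 3 ng, against 11.7 and 11.2 at 0 ng, and their changes passed after quantile normalization alone (0.51 and 0.52). Over the 16 luminal markers the mean per array ran from 6.75 to 6.99 at 3 ng, against 6.84 to 7.23 at 0 ng. EPCAM fell (-0.77), and without 0 ng array 4 or 3 ng array 3 no luminal marker did. The luminal keratin KRT18, with 12.7 in both groups, changed by -0.015 as deposited and by 0.26 after quantile normalization, where it passed. Over the 16 mesenchymal markers the mean per array was lower in every 3 ng array, 4.48 to 4.79 at 3 ng against 4.83 to 5.13 at 0 ng. The cadherin CDH2 (-0.97) and the repressor SNAI2 (-0.69) fell, with 1 fall left without 0 ng array 2 or 3 or 3 ng array 2 or 4. The median change of the mesenchymal markers as deposited, -0.22, lay close to the -0.235 of all genes. Their 2 falls of 16 stood close to the 12.4% of all genes that fell. VIM, the vimentin filament of mesenchymal cells, averaged 2.35 at 3 ng and 2.82 at 0 ng. Over the 14 immune markers the mean per array ran from 3.61 to 3.88 at 3 ng, against 3.85 to 3.99 at 0 ng. The leukocyte gene PTPRC was near the bottom of the range, with -0.49 at 3 ng and -0.34 at 0 ng, but the lysosomal macrophage marker CD68 averaged 8.63 at 3 ng and 8.82 at 0 ng. Of the immune markers ITGAM rose (0.56) and CSF1R fell (-0.73), and the call of ITGAM ended without 0 ng array 4 (0.51) or 3 ng array 2 (0.50) or 3 (0.48). Over the 10 endothelial markers the mean per array ran from 2.99 to 3.31 at 3 ng, against 3.16 to 3.59 at 0 ng, and none passed on both scales. PECAM1 averaged 1.54 at 3 ng and 1.76 at 0 ng, and ENG, the highest of these markers, 7.51 at 3 ng and 7.94 at 0 ng, a difference that passed as deposited (-0.43) and was 0.021 after quantile normalization. The part of other cells in the results was not tested.

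At 3 ng, 276 genes rose and 2276 fell, which is 1.50% and 12.4% of all genes. As deposited 276 were called up (1.50%) and 4228 down (23.0%), and after quantile normalization 2834 were called up (15.4%) and 2308 down (12.5%). No gene was called in opposite directions on the 2 scales, and 1952 of the falls called as deposited did not pass after quantile normalization. As deposited, 1.50% of all genes were higher at 3 ng without overlap of the arrays and 27.9% were lower. After quantile normalization these shares were 16.8% and 13.3%. A fall without overlap as deposited was thus common. Rises of at least 2-fold on both scales numbered 85 and falls 431. At 4-fold the counts were 20 and 119. At 8-fold there were 5 rises, namely CRYAB, LCE1C, AKR1B10, LCE1B and CLCA2, and 1 fall, the histone gene H2BC14. The falls called as deposited numbered 2493 without 0 ng array 4 and 2662 without 3 ng array 4, against 4228 with all arrays. The falls that passed on both scales stayed between 1883 and 2265 when any 1 of the 8 arrays was left out, and the rises between 204 and 289.

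**Figure D1:**
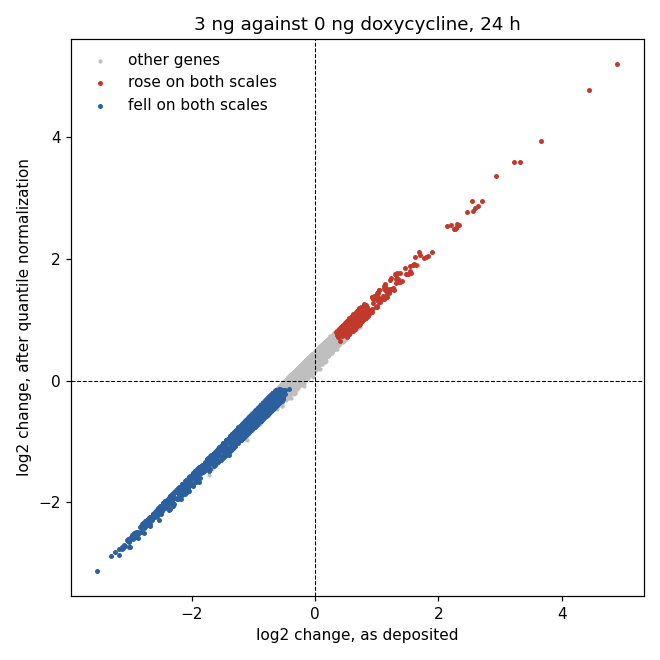
Log2 change at 3 ng against 0 ng for each of 18417 genes (points), as deposited on the x axis and after quantile normalization on the y axis. Red points are the 276 genes that rose and blue points the 2276 that fell on both scales, and the dashed lines mark 0. The median of all genes is -0.235 on the x axis and 0.08 on the y axis.

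The largest change of any gene was the rise of CRYAB (alpha B-crystallin), a small heat shock protein that keeps unfolding proteins soluble. It measured 8.73, 8.55, 8.87 and 8.54 in the 3 ng arrays, against 3.26, 3.52, 3.65 and 4.64 in the 0 ng arrays. Every induced array lay far above every uninduced one. The change of CRYAB was 4.91 ± 0.26 as deposited and 5.20 ± 0.22 after quantile normalization (SE of the limma fit to all 20 arrays, n = 4 arrays a group). Of the 32 measured heat shock and chaperonin genes, HSPB8 was the only other that rose. HSPB8, a small heat shock protein that works with BAG3, rose by 0.81 ± 0.22, a call lost on dropping 0 ng array 1 (0.66). In that list 7 genes fell, with DNAJC9, a histone cochaperone, at -1.56 and the mitochondrial cochaperonin HSPE1 at -0.74. These 7 falls of 32 genes stood against 12.4% of all genes. They numbered 3 without 0 ng array 4 and 4 without 3 ng array 4, counts near that share.

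AKR1B10, an aldo-keto reductase that reduces retinal and lipid aldehydes, measured 6.19, 6.21, 6.18 and 5.94 in the 3 ng arrays, against 2.99, 1.93, 2.31 and 2.60 in the 0 ng arrays. The 3 ng arrays lay close together, the uninduced arrays were more spread, and the groups were far apart. The change of AKR1B10 was 3.67 ± 0.23 as deposited and 3.93 ± 0.16 after quantile normalization. Of the 28 measured genes of the list of NRF2 targets and aldo-keto reductases, AKR1B10 and the drug exporter ABCC2 (0.75 ± 0.15) rose. SLC7A11, the cystine transporter, fell by 1.57 as deposited, and the sulfiredoxin gene SRXN1 changed by -0.70 (the 2 falls of the list). The 2 rises and 2 falls of 28 stood against 1.50% and 12.4% of all genes, so falls were no more common here. After quantile normalization the call of SRXN1 ended without 0 ng array 3 (-0.20) or 3 ng array 2 (-0.20) or 4 (-0.22). AKR1C1, AKR1C2 and AKR1C3 changed by 0.00, -0.04 and -0.09 and passed on neither scale.

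Genes of the cornified envelope, the cross-linked protein shell of terminally differentiated keratinocytes, included 3 of the 20 largest rises. LCE1C measured 10.52, 10.28, 10.58 and 9.95 in the 3 ng arrays, against 6.72, 5.42, 5.20 and 6.20 in the 0 ng arrays. LCE1B measured 6.63, 6.30, 6.54 and 6.04 in the 3 ng arrays, against 2.93, 3.24, 2.84 and 3.18 in the 0 ng arrays. The groups lay far apart in both genes. Of the 17 measured late cornified envelope genes 6 rose and 0 fell, with a median of 0.10 as deposited and 0.44 after quantile normalization. Over all genes 1.50% rose and 12.4% fell. LCE1C rose by 4.45 ± 0.24, LCE1B by 3.33 ± 0.18 and LCE1F by 2.20 ± 0.14. LCE1A rose by 0.65, LCE1E by 0.55 and LCE3D by 0.49, all smaller calls that did not hold in every fit without 1 array. The deposited signals of LCE1A and LCE3D overlapped between the groups. The LCE1A call was lost on dropping 0 ng array 1 (0.52) or 2 (0.60). The LCE1E call was lost on dropping 0 ng array 1 (0.47) or 3 ng array 2 (0.51) or 3 (0.50), and the LCE3D call was lost on dropping 0 ng array 2 (0.43) or 4 (0.48) or 3 ng array 1 (0.37), 2 (0.48) or 3 (0.45). LCE1D changed by 0.14 and LCE2B by 0.06 and neither passed as deposited. The LCE1 genes are close copies of one another, so their probes may share signal. Among the other 38 epidermal differentiation genes 2 rose, the lipoxygenase ALOX12B (0.61) and filaggrin, FLG (0.53), and 0 fell. The FLG call held without 0 ng array 4 (0.65) and was lost on dropping any 1 of the other 7 arrays (0.46 to 0.56). Of 25 junction genes, DSG3, a desmosomal cadherin of stratified epithelia, was the only one that rose. It measured 9.86, 9.59, 9.75 and 9.45 in the 3 ng arrays, against 9.05, 8.36, 8.19 and 8.91 in the 0 ng arrays. The groups did not overlap, and the change of DSG3 was 1.03 ± 0.17.

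**Figure D2:**
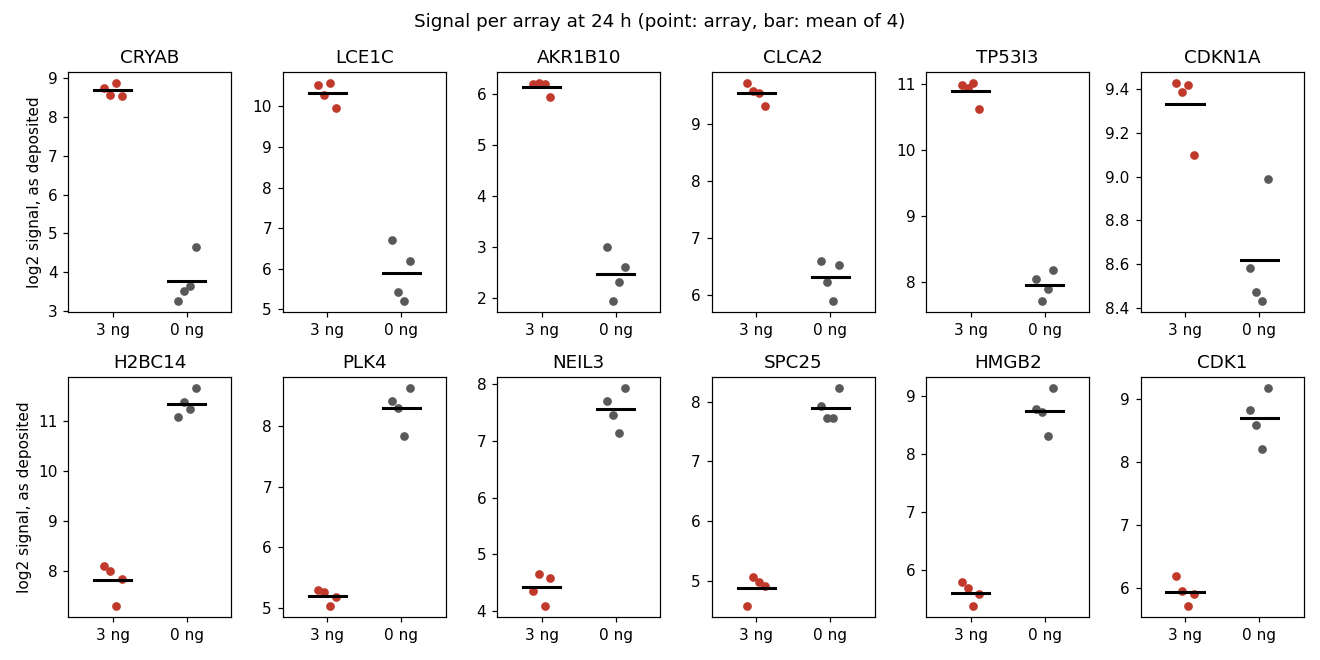
Log2 signal as deposited of 6 genes that rose (top row) and 6 that fell (bottom row), with 1 point per array, 3 ng on the left and 0 ng on the right of each panel, and a bar at the mean of the 4 arrays. The groups did not overlap in any of the 12 genes. For the largest rises and falls the choice required this. CDKN1A was shown as a gene of the p53 panel, whose choice did not require it. Over all genes 1.50% were higher at 3 ng without overlap and 27.9% lower.

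The p53 targets were read by role. The counts of each role stand against the 1.50% of all genes that rose and the 12.4% that fell. Of 24 measured targets of cell death 6 rose and 1 fell (SIVA1, -0.62 as deposited and -0.23 after quantile normalization, a fall lost without any 1 replicate of 0 ng or 3 ng array 1 or 4, at -0.15 to -0.24 after quantile normalization), with a median of 0.05 as deposited and 0.45 after quantile normalization. TP53I3, a quinone oxidoreductase that produces reactive oxygen, measured 10.98, 10.94, 11.02 and 10.63 in the 3 ng arrays, against 8.05, 7.71, 7.90 and 8.18 in the 0 ng arrays. The groups lay far apart, and the change of TP53I3, 2.93 ± 0.14, was 7.63-fold. TP53INP1, a stress protein that acts in cell death and autophagy, rose by 1.71 ± 0.16, PIDD1, the scaffold of the PIDDosome that activates CASP2, by 1.12 ± 0.15, and the initiator caspase CASP10 by 1.00 ± 0.19. CDIP1 rose by 0.70. APAF1, the scaffold of the apoptosome, measured 8.12, 8.04, 8.15 and 7.78 at 3 ng, against 7.70, 7.58, 7.12 and 7.80 at 0 ng. The groups touched, since replicate 4 was the lowest array at 3 ng and the highest at 0 ng. The change of APAF1 was 0.47 ± 0.16 (limma adjusted p = 0.035), and the call was lost on dropping 0 ng array 2 (0.48) or 3 (0.33) or 3 ng array 1 (0.44), 2 (0.47) or 3 (0.43). After quantile normalization APAF1 stood at 0.92 ± 0.07 (limma adjusted p = 2.9e-08). FAS, a death receptor, changed by 0.40 as deposited (limma adjusted p = 0.073) and by 0.87 after quantile normalization (limma adjusted p = 7.6e-09).

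Of 17 targets of cell cycle and cell number 2 rose and 1 fell. On the quantile normalized scale 14 were called up and 1 down, with these genes included. CDKN1A measured 9.43, 9.39, 9.42 and 9.10 at 3 ng, against 8.58, 8.47, 8.43 and 8.99 at 0 ng. The groups did not overlap, though 0 ng array 4 came close to 3 ng array 4. The change of CDKN1A was 0.72 ± 0.14 as deposited and 1.19 ± 0.06 after quantile normalization. ZNF385A, a cofactor of p53 at arrest genes, rose by 0.61 ± 0.13. E2F7, a repressor of E2F target genes that p53 activates, went the other way. It measured 7.59, 7.42, 7.53 and 7.20 at 3 ng, against 8.72, 8.63, 8.48 and 8.92 at 0 ng, without overlap. E2F7 fell by 1.25 on the log2 scale.

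Of 24 targets of metabolism and autophagy 11 rose and 0 fell, with a median of 0.37 as deposited and 0.72 after quantile normalization. PLTP, which transfers phospholipids between lipoproteins, measured 10.08, 9.93, 10.07 and 9.79 at 3 ng, against 7.08, 7.33, 7.75 and 7.56 at 0 ng. The induced arrays lay far above the uninduced ones, and the change of PLTP was 2.54 ± 0.15. ABHD4, a lipase of N-acyl phospholipids, rose by 1.38 ± 0.14, the ceramidase ACER2 by 1.34 ± 0.17, RETSAT, a retinol saturase, by 1.24 ± 0.14 and CMBL, a hydrolase, by 1.13 ± 0.16. SESN1, a sestrin that restrains mTORC1, rose by 1.01 ± 0.18, SPATA18, a mitochondrial quality control gene, by 0.96 and NADSYN1, which makes NAD, by 0.92. ALDH4A1, DRAM1 and HHAT changed by 0.40, 0.52 and 0.68 and completed the 11. The call of ALDH4A1 ended in 5 of the 8 fits that left out an array (0.30 to 0.40) and that of DRAM1 in 6 (0.45 to 0.54), in both cases without 0 ng array 1 or 2 or 3 ng array 2 or 3.

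Of 37 targets that are secreted, lie in the membrane or shape the cytoskeleton, 9 rose and 1 fell. CLCA2, a membrane protein of epithelia, measured 9.72, 9.58, 9.54 and 9.31 at 3 ng, against 6.60, 6.23, 5.89 and 6.53 at 0 ng. ABCA12, which loads lipids into the lamellar granules of the epidermis, measured 8.97, 8.91, 9.01 and 8.74 at 3 ng, against 7.10, 6.50, 6.35 and 7.13 at 0 ng. Neither gene overlapped between the groups, and CLCA2 rose by 3.23 ± 0.17 and ABCA12 by 2.14 ± 0.18. PADI4, an enzyme that turns arginine in histones into citrulline, rose by 1.50 ± 0.18, GDF15, a secreted stress factor, by 1.14 ± 0.15, and CYFIP2, a subunit of the WAVE complex for actin, by 1.04 ± 0.13. THBS1, a matrix glycoprotein, was the fall (-0.56). Of 19 targets of repair and RNA control 6 rose and 1 fell. On the quantile normalized scale 15 were called up and 1 down, with these genes included. The largest rise was that of ANKRA2 (1.21 ± 0.21), followed by TRIM22 (0.69) and ZMAT3, an RNA binding protein (0.62), and the fall was FANCC (-1.61). The 6 rises became 3 without replicate 1 or 2 of either dose, 2 without replicate 3 of either dose, 4 without 3 ng array 4 and 9 without 0 ng array 4. The rise of ZMAT3 ended without 0 ng array 1 (0.59) or 3 (0.47) or 3 ng array 3 (0.59). RRM2B, the ribonucleotide reductase subunit induced by p53, had 9.93, 9.96, 9.82 and 9.62 at 3 ng, against 9.40, 9.30, 8.69 and 9.76 at 0 ng. Its groups overlapped. The change of RRM2B was 0.55 ± 0.19 (limma adjusted p = 0.045), and the call held without 0 ng array 4 (0.70) but was lost on dropping any 1 of the other 7 arrays (0.35 to 0.62).

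Of 11 feedback regulators of p53 none rose, while 7 were called up after quantile normalization alone and 1 fell. MDM2 was near the top of the range of the arrays, with 12.35, 12.29, 12.30 and 12.13 at 3 ng, against 12.15, 12.05, 11.72 and 12.42 at 0 ng. The groups overlapped, with a change of MDM2 of 0.18 ± 0.15 as deposited (limma adjusted p = 0.44) and 0.48 ± 0.05 after quantile normalization (limma adjusted p = 1.4e-06). PPM1D, the phosphatase that switches off p53 signalling, changed by -0.04 and 0.40 on the same scales, the repair genes DDB2 by -0.18 and 0.27 and XPC by 0.13 and 0.54, and PHLDA3, an inhibitor of AKT, by 0.00 and 0.45. These 4 passed after quantile normalization only. Their deposited signals overlapped between the groups.

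The remaining large rises were spread over many functions. BLNK, an adaptor of B cell receptor signalling, measured 6.06, 5.86, 6.08 and 5.65 at 3 ng, against 3.63, 3.02, 3.27 and 3.18 at 0 ng. CEACAM1, an adhesion molecule, measured 7.57, 7.28, 7.34 and 6.94 at 3 ng, against 5.05, 4.82, 4.67 and 4.71 at 0 ng. FAM13C measured 5.93, 5.68, 5.88 and 5.38 at 3 ng, against 3.53, 3.25, 3.48 and 3.45 at 0 ng. In all 3 the induced arrays lay far above the uninduced ones. BLNK rose by 2.64 ± 0.18, CEACAM1 by 2.47 ± 0.15 and FAM13C by 2.29 ± 0.15. NSG1 rose by 2.56 ± 0.19, PLEKHG1 by 2.33 ± 0.20, the cadherin CDH10 by 2.31 ± 0.20, PALMD by 2.28 ± 0.22, DNAI3, an axonemal dynein chain, by 2.25 ± 0.19 and ELOVL2, which lengthens polyunsaturated fatty acids, by 2.27 ± 0.30. PTPN22, a phosphatase known from lymphocytes, was dim, with 3.73, 2.62, 3.23 and 3.24 at 3 ng, against -0.65, 0.54, 0.84 and 1.72 at 0 ng. It rose by 2.59 ± 0.37 without overlap. CES2, a carboxylesterase, was among the brightest genes that rose by over 1 unit (1.29 ± 0.13). Of 25 genes tied to FOXO factors and growth arrest 4 rose and 1 fell, against 1.50% and 12.4% of all genes. Among the rises were YPEL5 (0.83 ± 0.17) and DEPP1 (0.80 ± 0.15). The inhibitor CDKN1B (p27), the fall of that list, measured 6.32, 6.63, 6.40 and 6.41 at 3 ng, against 7.55, 7.44, 7.22 and 7.92 at 0 ng, without overlap. CDKN1B changed by -1.09 ± 0.19, while its relative CDKN1A rose.

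Secreted signals went both ways. Of 19 factors of the senescence-associated secretory list 3 rose and 3 fell. IL6 measured 9.28, 9.30, 9.21 and 8.90 at 3 ng, against 8.63, 8.14, 8.32 and 8.71 at 0 ng, and rose by 0.72 ± 0.15 without overlap. IGFBP3, which binds insulin-like growth factors, rose by 0.92 ± 0.25 and GDF15 was the third. The chemokines CXCL8 (-0.85) and CXCL1 (-0.74) and the angiogenic factor VEGFA (-0.77) fell. After quantile normalization the call of CXCL1 ended without 0 ng array 3 (-0.30) or 3 ng array 1 (-0.37), and that of VEGFA without 3 ng array 4 (-0.25). Of 14 ligands, receptors and brakes of the epidermal growth factor receptor family 0 rose and 3 fell, where 12.4% of all genes fell. NRG1, the neuregulin ligand, measured 6.06, 6.19, 5.92 and 5.83 at 3 ng, against 8.07, 8.04, 7.70 and 8.27 at 0 ng. The groups lay far apart, and the change of NRG1 was -2.02 ± 0.20. The receptor antagonists LRIG3 (-1.49) and LRIG1 (-0.99) fell with it. FST, the antagonist of activin, fell by 1.65 ± 0.17, the largest change among 26 genes of IGF, TGF-beta and BMP signalling. In that list 2 rose and 4 fell, and 2 fell without 0 ng array 2 or 3 or 3 ng array 1 or 3. Of 27 Notch and Wnt genes 0 rose and 4 fell, the Notch ligands JAG1 (-0.86) and DLL1 (-0.94) among them. Of 33 matrix and protease genes 0 rose and 6 fell, with tenascin, TNC, at -0.92 and the basement membrane collagens COL4A2 and COL4A1 at -0.86 and -0.82. Without 1 array at a time the falls of these lists ran from 3 to 4 and from 5 to 6. The shares 4 of 27 and 6 of 33, like 3 of 19 secretory factors and 4 of 26 genes of IGF, TGF-beta and BMP signalling, stood close to the 12.4% of all genes that fell, so they say nothing particular about these lists.

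The falls were led by genes of dividing cells, whose counts stand against the 12.4% of all genes that fell. Among the regulators, 14 of 20 E2F, RB and DREAM genes fell. MYBL2, the MYB protein that drives mitotic genes from the MuvB complex, measured 7.16, 7.05, 7.02 and 6.77 at 3 ng, against 9.34, 9.55, 9.47 and 9.84 at 0 ng. FOXM1, its partner in late G2, measured 6.61, 6.63, 6.31 and 6.28 at 3 ng, against 8.70, 8.74, 8.77 and 9.08 at 0 ng. Both were lower in every induced array. MYBL2 fell by 2.55 ± 0.22 and FOXM1 fell by 2.37 ± 0.19. E2F8 (-2.31), the MuvB subunit LIN9 (-2.05) and the pocket protein RBL1 (p107, -1.88) fell as well, and E2F1 by less (-1.26 ± 0.24). The pocket protein RBL2 (p130), which DREAM uses in resting cells, changed by -0.16 as deposited and by 0.28 after quantile normalization, where it passed. RB1 changed by -0.51 and -0.04 and passed as deposited only.

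Of 47 genes of origin licensing and the replication fork 45 fell, with a median of -1.97 as deposited and -1.54 after quantile normalization. POLE2, a subunit of the leading strand polymerase, changed by -2.92, CLSPN, a fork checkpoint mediator, by -2.70, the origin recognition subunit ORC6 by -2.58 and the licensing factor CDC6 by -2.43. PCNA, the sliding clamp and itself a reported p53 target, was bright and changed by less. It measured 9.99, 10.03, 9.90 and 9.75 at 3 ng, against 10.96, 10.96, 10.72 and 11.27 at 0 ng, without overlap (-1.06 ± 0.17). RPA3 (-0.51) and ORC4 (-0.18, and 0.28 after quantile normalization) were the 2 that did not fall. Of 26 genes of nucleotide synthesis 24 fell, with RRM2, the S phase subunit of ribonucleotide reductase, at -2.10, the dUTPase DUT at -1.99 and SHMT1, a folate enzyme, at -1.71. IMPDH1 (-0.28) and DHODH (-0.65) did not pass on both scales.

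Of 39 centromere and kinetochore genes 37 fell (median -2.24 as deposited and -1.93 after quantile normalization), and so did all 39 mitotic spindle motors and kinases (median -2.44 and -2.01). PLK4, the kinase of centriole duplication, measured 5.30, 5.26, 5.02 and 5.18 at 3 ng, against 8.42, 8.30, 7.83 and 8.63 at 0 ng. SPC25, a subunit of the NDC80 complex that grips microtubules, measured 4.57, 5.06, 4.98 and 4.91 at 3 ng, against 7.93, 7.72, 7.73 and 8.23 at 0 ng. Both were far lower in every induced array, with changes of -3.10 ± 0.26 in PLK4 and -3.02 ± 0.24 in SPC25. FBXO5 (EMI1), which blocks the anaphase promoting complex until mitosis, changed by -3.03 ± 0.23, SGO1, the protector of centromeric cohesion, by -3.01 ± 0.29 and the kinesin KIF11 by -3.04. PTTG1 (securin) had the smallest fall of the spindle list (-0.84). CENPT (-0.26) and MAD1L1 (-0.32) were the 2 kinetochore genes that did not fall. Of 22 cohesin and condensin genes 17 fell. The condensin subunit NCAPH (-2.77), the cohesin protector CDCA5 (sororin, -2.73), the acetyltransferase ESCO2 (-2.72) and the topoisomerase TOP2A (-2.70) changed most, while the cohesin loader genes NIPBL and MAU2 (-0.51 and -0.29) did not pass on both scales.

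Repair genes divided by pathway. Of 27 genes of the Fanconi anemia and homologous recombination pathways 24 fell (median -1.74 and -1.44), led by RAD51AP1 (-2.92), EXO1 (-2.75), XRCC2 (-2.74) and the helicase BLM (-2.60). Of 28 excision and mismatch repair genes 11 fell (median -0.57 and -0.18). Within that list the glycosylase NEIL3 measured 4.36, 4.65, 4.08 and 4.59 at 3 ng, against 7.71, 7.45, 7.14 and 7.93 at 0 ng, and no arrays overlapped (-3.14 ± 0.25). UNG, which removes uracil from DNA, changed by -2.31 and the mismatch gene MSH6 by -1.53, while ERCC1 (-0.29), ERCC4 (-0.25) and POLB (-0.08) did not fall, and POLB passed upward after quantile normalization (0.38). Of 22 genes of end joining and damage signalling 16 fell, with the checkpoint kinases CHEK1 (-2.07) and CHEK2 (-1.61) and the histone variant H2AX (-1.72) among them, and not LIG4 (-0.08) or TP53BP1 (-0.18), which changed by 0.34 and 0.23 after quantile normalization.

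Of 26 genes of chromatin assembly, heterochromatin and DNA methylation maintenance 22 fell (median -1.42 and -0.99). HMGB2, a DNA bending protein of proliferating cells, measured 5.79, 5.69, 5.37 and 5.59 at 3 ng, against 8.77, 8.72, 8.32 and 9.14 at 0 ng. Every induced array was far below every uninduced one, and the change of HMGB2 was -3.13 ± 0.25. The lamin LMNB1, whose loss marks senescent cells, changed by -2.74, the histone chaperone ASF1B by -2.58, UHRF1, which brings DNMT1 to new DNA, by -2.35, the Polycomb methyltransferase EZH2 by -1.91 and DNMT1 itself by -1.63. The histone gene H2BC14 measured 8.10, 8.0, 7.28 and 7.84 at 3 ng, against 11.08, 11.38, 11.23 and 11.66 at 0 ng, the largest fall of any gene that passed on both scales (-3.53 ± 0.24). Histone genes are close copies, so probes may share signal. The bright linker histone H1-4 changed by -1.90 ± 0.17 and the variant H2AZ1 by -1.31 ± 0.18. Of 31 nuclear pore and import genes 30 fell (median -1.04 and -0.59), among them NUP107 (-1.59) and NDC1 (-1.61), and RANBP2 did not (-0.22, and 0.25 after quantile normalization).

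**Figure D3:**
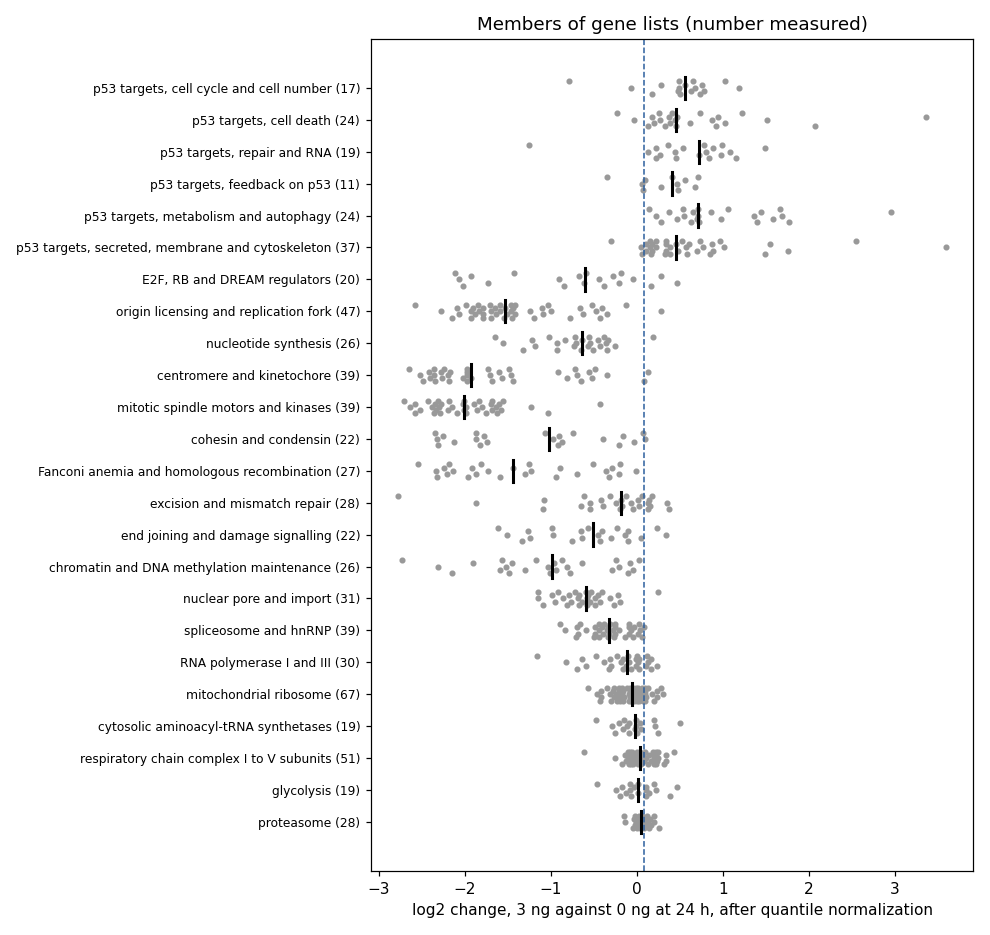
Log2 change at 3 ng against 0 ng after quantile normalization of each measured member (grey points) of 24 gene lists, with the list median as a black bar. The dashed line marks the median of all genes, 0.08. The division lists lie left of it and the p53 target lists right of it.

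Genes of RNA processing and growth fell less. Of 39 spliceosome and hnRNP genes 27 fell (median -0.73 and -0.32, with LSM5 at -1.28 and SNRPD1 at -1.12), and of 30 subunits and factors of RNA polymerases I and III 12 fell (median -0.57 and -0.11, with TAF1A at -1.50 and POLR3G at -1.29). Of 67 mitochondrial ribosome genes 16 fell and 0 rose, with a median of -0.51 as deposited and -0.06 after quantile normalization. That share, 16 of 67, stood against 12.4% of all genes. CDK4, the partner of D cyclins, changed by -1.27 ± 0.15, the largest of 9 falls among 22 genes of the MYC and growth list. MYC itself changed by -0.50 as deposited and by -0.05 after quantile normalization, and passed on the first scale only. Of 19 aminoacyl-tRNA synthetase genes 3 fell and 0 rose, with FARSB at -0.95. That share, 3 of 19, stood close to the 12.4% of all genes, and 2 fell without 0 ng array 2 or 3 ng array 2, 3 or 4.

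In 3 housekeeping lists the direction depended on the scale, as it did over all genes. Of all genes 23.0% were called down and 1.50% up as deposited, against 12.5% and 15.4% after quantile normalization. Of 51 respiratory chain genes 17 were called down and 0 up as deposited, but 1 down and 16 up after quantile normalization, and 1 fell on both (CYC1, -0.64). Of 28 proteasome genes 6 were called down as deposited and 5 up after quantile normalization, and none passed on both. Of 41 lysosome and autophagy genes 9 were called down and 1 up as deposited, against 3 and 19 after quantile normalization. The proteasome counts and the 9 of 41 lysosome genes called down stood close to the shares of all genes. The 19 of 41 called up were a larger share. The median of the respiratory chain list, -0.38 and 0.03 on these scales, lay close to the median of the brightest of the 5 bins (-0.41 and 0.03). SQSTM1, the autophagy receptor p62, rose by 0.35 as the single rise of the lysosome list on both scales, and the call was lost on dropping 0 ng array 1 (0.37), 2 (0.29) or 3 (0.33) and without 3 ng array 1 (0.32), 2 (0.32) or 3 (0.34). GLA, a lysosomal galactosidase, fell by 1.11.

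Promoter sequence was read as a property that the measurements did not use. RefSeq (GRCh38.p14) gave a window from 250 bases before to 50 bases after the first listed start for 14239 of the genes. The motifs were searched on both strands. A match to E2F was TTGGCGC, or else the variant TTCCCGC, the variant TTGCCGC or the variant TTCGCGC. A CHR was read as TTTGAA, and a CCAAT box as the letters of its name. E2F and CHR letters cannot overlap, an E2F match can share 4 letters with a CCAAT box, and each motif was counted on its own. Of the 102 genes that fell at least 4-fold, 51 held a CHR, against 11.9% of all 14239. E2F letters stood in 43.1% of them against 17.5%, and a CCAAT box in 68.6% against 36.3%. CHR and CCAAT box together were found in 38.2% against 4.86%. Among the 352 genes that fell at least 2-fold the shares were 31.0% for CHR, 42.0% for E2F and 59.4% for the CCAAT box. The CHR share thus changed most between the 2-fold and the 4-fold set, while the E2F share hardly moved. The CHR and E2F matches were also placed differently. Of the CHR matches in the 4-fold set 54.0% lay between 50 bases before and 25 bases after the start, against 20.2% of those in all genes, and for E2F the shares were 55.4% and 28.4%. A match is a description of the letters and not a site of binding.

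The following are the 250 bases before the start, 5′ to 3′ on the gene's own strand, with the motif letters in capitals. The genes are the 4 largest falls with all 3 motifs inside those 250 bases. The sequences show how the motifs lie in one promoter.
SPC25 (chr2:168890431-168890680, minus strand): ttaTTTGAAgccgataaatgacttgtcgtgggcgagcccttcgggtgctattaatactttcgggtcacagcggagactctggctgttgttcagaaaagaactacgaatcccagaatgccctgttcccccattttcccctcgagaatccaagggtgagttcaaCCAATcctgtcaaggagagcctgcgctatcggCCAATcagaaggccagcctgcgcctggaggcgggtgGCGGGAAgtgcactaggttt
ASPM (chr1:197146670-197146919, minus strand): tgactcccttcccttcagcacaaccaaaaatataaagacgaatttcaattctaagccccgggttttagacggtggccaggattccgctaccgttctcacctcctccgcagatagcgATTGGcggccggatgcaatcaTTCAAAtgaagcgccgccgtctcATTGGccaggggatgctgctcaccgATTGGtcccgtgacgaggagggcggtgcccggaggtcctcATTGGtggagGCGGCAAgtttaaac
KIF18A (chr11:28108157-28108406, minus strand): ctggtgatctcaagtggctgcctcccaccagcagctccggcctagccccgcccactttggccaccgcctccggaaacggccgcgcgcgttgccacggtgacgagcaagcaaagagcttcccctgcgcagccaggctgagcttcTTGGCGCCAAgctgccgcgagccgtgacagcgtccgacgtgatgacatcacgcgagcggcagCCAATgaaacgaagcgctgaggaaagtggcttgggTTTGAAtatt
CDK1 (chr10:60778081-60778330, plus strand): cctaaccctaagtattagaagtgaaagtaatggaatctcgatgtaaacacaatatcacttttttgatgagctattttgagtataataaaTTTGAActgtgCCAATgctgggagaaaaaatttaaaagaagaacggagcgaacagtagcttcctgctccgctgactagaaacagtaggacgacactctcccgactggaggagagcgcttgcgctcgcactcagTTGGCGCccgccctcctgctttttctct

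In SPC25 the E2F match begins 20 bases before the start (position -20) and CCAAT boxes begin at -88 and -56, while its CHR lies far away at -247. In KIF18A, which encodes a kinesin that damps chromosome movements, the CHR begins at -10, a CCAAT box at -45 and 2 overlapping E2F matches at -107 and -104. ASPM, a spindle pole protein, holds 4 CCAAT boxes, at -134, -90, -65 and -25, besides E2F at -15 and CHR at -113. CDK1, the main mitotic kinase, measured 6.20, 5.96, 5.71 and 5.90 at 3 ng, against 8.82, 8.59, 8.21 and 9.17 at 0 ng. Its window is that of the first of its listed starts and holds E2F at -28, CHR at -161 and a CCAAT box at -150. The changes of ASPM, KIF18A and CDK1 were -2.92, -2.80 and -2.75.

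**Figure D4:**
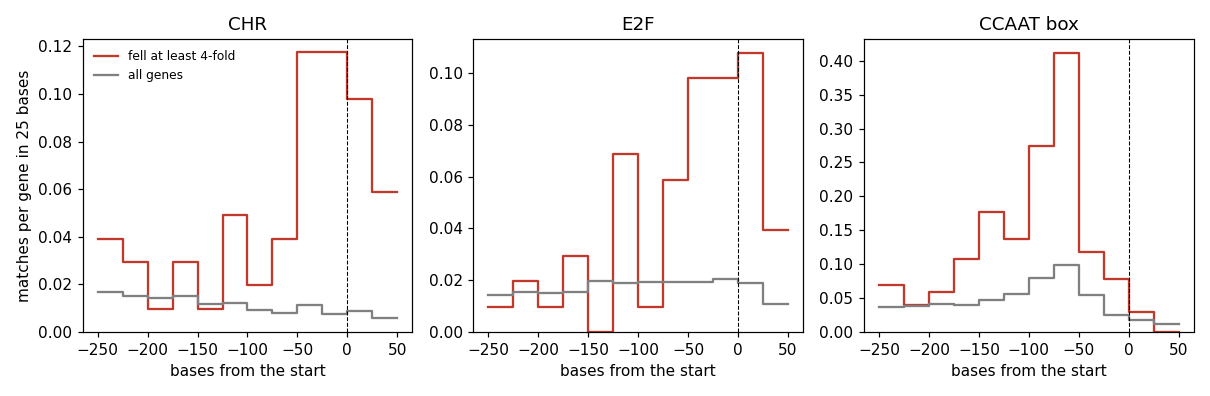
Matches to the CHR, the E2F motif and the CCAAT box per gene in bins of 25 bases, by distance from the gene's start (x axis, bases), in the 102 genes that fell at least 4-fold (red) and in all 14239 genes with a window (grey). In the genes that fell, CHR and E2F matches gather within 50 bases of the start. CCAAT boxes lie further upstream, both in these genes and in all genes.

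The same motifs were read in the genes that rose. Of 66 genes that rose at least 2-fold and had a window, 10.6% held E2F letters, 18.2% a CHR and 27.3% a CCAAT box. A complete p53 element, 2 decamers with at most 13 bases between them, was found in 0 of these 66 and in 3 of all 14239 windows. A single p53 decamer was found in 13 of the 66 (19.7%), against 5.94% of all genes, a count chosen after the windows had been read. The same decamer stood in 12.6% of all 222 genes that rose and had a window, in 10.8% of the 102 that fell at least 4-fold and in 4.57% of all 1858 that fell. The 3 largest rises with a decamer before the start are shown, with the decamer in capitals.
BLNK (chr10:96271570-96271819, minus strand): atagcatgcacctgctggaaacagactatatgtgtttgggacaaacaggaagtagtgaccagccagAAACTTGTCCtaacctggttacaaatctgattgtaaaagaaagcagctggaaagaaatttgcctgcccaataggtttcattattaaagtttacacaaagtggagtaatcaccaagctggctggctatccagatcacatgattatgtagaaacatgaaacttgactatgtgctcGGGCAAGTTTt
ABCA12 (chr2:215138627-215138876, minus strand): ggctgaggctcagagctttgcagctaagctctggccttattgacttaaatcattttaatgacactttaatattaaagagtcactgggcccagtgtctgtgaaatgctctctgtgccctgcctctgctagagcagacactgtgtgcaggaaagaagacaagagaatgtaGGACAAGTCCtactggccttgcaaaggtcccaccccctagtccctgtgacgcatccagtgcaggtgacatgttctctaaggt
MR1 (chr1:181033137-181033386, plus strand): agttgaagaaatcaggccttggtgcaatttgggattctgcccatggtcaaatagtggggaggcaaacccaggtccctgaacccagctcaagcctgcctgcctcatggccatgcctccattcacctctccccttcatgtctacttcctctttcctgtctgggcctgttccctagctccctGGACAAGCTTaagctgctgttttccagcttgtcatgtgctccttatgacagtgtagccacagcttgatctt

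BLNK holds decamers at -184 and -11, ABCA12 at -82 and MR1 at -71. MR1, which presents vitamin metabolites to T cells, was named here for its sequence. It measured 8.43, 8.13, 8.27 and 7.95 at 3 ng, against 7.26, 6.76, 6.51 and 6.97 at 0 ng, without overlap. MR1 rose by 1.32 ± 0.17.

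Genes of microRNAs and their host transcripts were mostly dim, with 148 of 189 below a mean signal of 5 in both groups. The arrays measured these primary transcripts and not the mature RNAs. On both scales 2 of the 189 rose, MIR22HG and MIR96, and 1 fell, MIR17HG. The rises stood near the 1.50% of all genes that rose, and the falls well below the 12.4% that fell. MIR96 rose by 0.92, but its call held as deposited only without 0 ng array 2 or 3 and was lost on dropping any 1 of the other 6 arrays (0.72 to 0.98). The microRNA genes named here were picked after their values were seen. MIR17HG, the host of the miR-17-92 cluster that E2F factors activate, measured 3.28, 4.02, 3.19 and 3.55 at 3 ng, against 5.06, 5.33, 4.54 and 5.68 at 0 ng. MIR22HG, the host of miR-22, measured 7.52, 7.57, 7.40 and 7.14 at 3 ng, against 6.71, 6.58, 6.60 and 6.81 at 0 ng. Neither overlapped between the groups. MIR17HG changed by -1.64 ± 0.29 and MIR22HG by 0.73 ± 0.18. MIR34A, a reported p53 target, measured 2.69, 2.69, 2.95 and 2.77 at 3 ng, against 3.11, 2.23, 1.77 and 1.62 at 0 ng. Its groups overlapped because of 0 ng array 1, and the change of MIR34A, 0.59 ± 0.29, did not pass as deposited (limma adjusted p = 0.16). After quantile normalization it was 0.83 ± 0.25 (limma adjusted p = 0.018). The mature RNAs encoded there are given 5′ to 3′ with the seed, bases 2 to 8, in capitals, from RefSeq (GRCh38.p14).
hsa-miR-17-5p: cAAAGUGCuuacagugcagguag
hsa-miR-20a-5p: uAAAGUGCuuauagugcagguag
hsa-miR-22-3p: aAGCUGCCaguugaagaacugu
hsa-miR-34a-5p: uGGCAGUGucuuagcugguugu

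The first pair, both from the transcript that fell, share 1 seed. The other seeds differ from it and from each other.

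The low dose was last set against 5 ng at the same 24 h. The comparison of 5 ng with 3 ng shares the 3 ng arrays with the comparison above, so the values are given side by side. Of the 276 genes that rose at 3 ng, 153 were higher still at 5 ng by the direct test on both scales (called up in all: 1.79% as deposited and 5.96% after quantile normalization). Of the 2276 that fell, 136 were lower still (called down in all: 0.755% and 4.42%). FAM13C averaged 3.43, 5.72 and 7.32 at 0, 3 and 5 ng, and PALMD 3.46, 5.74 and 7.95. IL6 averaged 8.45, 9.17 and 9.21 at these doses, and ELOVL2 2.85, 5.12 and 5.42. For IL6 and ELOVL2 the direct difference of 5 ng and 3 ng, 0.04 and 0.30, did not pass, which does not show that the doses act alike. H1-4 likewise averaged 11.99, 10.09 and 10.03, with a direct difference of -0.06, while H2BC14 averaged 11.34, 7.81 and 6.25 and was lower at 5 ng (-1.56, limma adjusted p = 0.00069).

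No gene that rose at 3 ng was called lower at 5 ng than at 3 ng as deposited. Of the 4228 called down at 3 ng as deposited, 17 were called higher at 5 ng than at 3 ng. This is a smaller share than the 1.79% of all genes called up in that comparison. Of the 17, 6 passed in both comparisons on both scales, a choice that by itself puts their lowest mean at 3 ng. Both comparisons share the 3 ng arrays, so spread in those arrays alone can favour this pattern. FAM83D, which brings the kinase CK1 to the mitotic spindle, averaged 9.57 at 0 ng, 8.07 ± 0.16 at 3 ng and 8.96 ± 0.15 at 5 ng (SD, n = 4 arrays). PTTG1 averaged 10.50, 9.66 and 10.24 at 0, 3 and 5 ng, and the giant cadherin FAT2 8.10, 6.99 and 7.59. BCL2L11 (BIM), a BH3-only inducer of apoptosis, measured 4.71, 4.41, 4.59 and 4.08 at 3 ng, against 5.39, 5.10, 5.07 and 5.33 at 0 ng. Every 3 ng array was below every uninduced one (-0.78 ± 0.16), while the mean at 5 ng was 5.27 and the direct difference of 5 ng and 3 ng was 0.82 (limma adjusted p = 0.0053). EEIG2 averaged 5.33, 4.57 and 5.50 at the 3 doses, and its fall at 3 ng was lost without 0 ng array 4 (-0.64) or 3 ng array 1 (-0.62) or 4 (-0.66). ZNF701, a zinc finger gene, was near the bottom of the range and averaged 0.54, -0.54 and 0.50 at 0, 3 and 5 ng, and its fall was lost after quantile normalization without 0 ng array 1 (-0.62) or 3 (-0.67) or 3 ng array 2 (-0.72), 3 (-0.75) or 4 (-0.75).

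**Figure D5:**
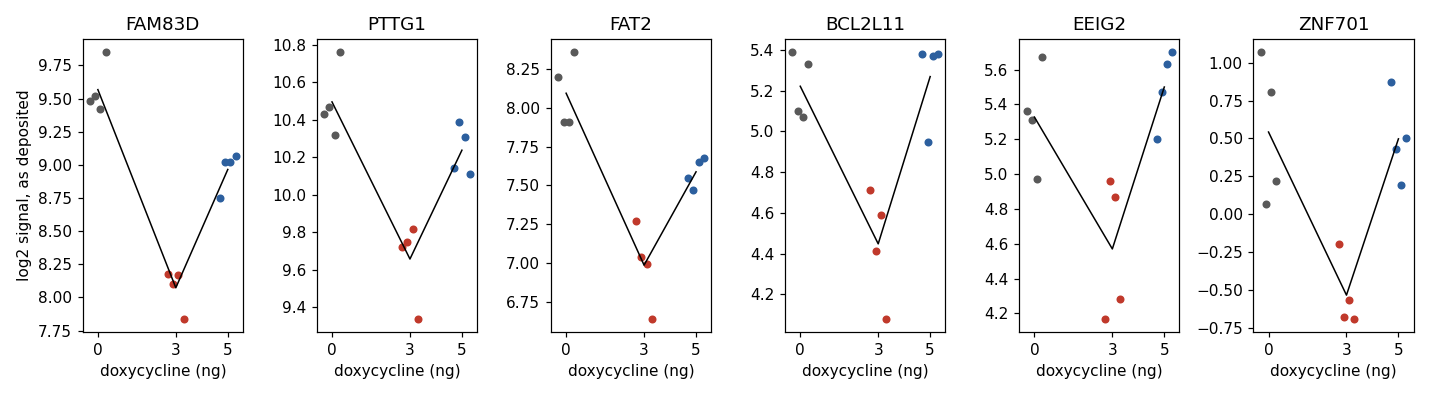
Log2 signal as deposited at 0, 3 and 5 ng of doxycycline for 24 h (x axis) of the 6 genes that fell at 3 ng and were higher at 5 ng than at 3 ng, with 1 point per array and a line through the means of 4 arrays. In each panel the mean at 3 ng is the lowest of the 3, as the choice of these genes requires.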

How the data were processed

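RNA of 20 arrays in 5 groups (0 ng at 24 h, and 3 and 5 ng at 12 and 24 h) was measured on Affymetrix arrays. The deposited values are log2 signals. Per the submitters' processing notes, GCOS, Affymetrix Power Tools, GCRMA and limma were used, with no order or version stated. Of 33297 transcript clusters 19460 had 1 gene symbol in the platform annotation, 1754 had several and 12083 were not listed. Per gene the cluster with the highest mean was kept, which gave 18417 genes. A group-means model was fitted to all 20 arrays with limma 3.58.1 in R 4.3.3 (eBayes, Benjamini-Hochberg over all genes, threshold 0.05), as deposited and after quantile normalization of all clusters, and was tested on simulated data.

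Members and gene lists were chosen with earlier results of these data known. Named were a p53 panel, the 20 largest rises and falls without overlap, the members with the largest changes in each list, the brightest genes changed at least 2-fold, and genes reversed at 5 ng. Any other gene in the text, among them list members that did not pass, was chosen after its values were seen. Same-numbered arrays of 3 ng and 0 ng had deviations that correlated at 0.192, 0.039, 0.194 and -0.0083. Differently numbered arrays correlated at -0.309 to 0.122. Whether the numbers pair the samples was thus not settled, and the main fit used no pairing. The number of arrays limits the precision. Alternatives were other scalings, filters, variance models, array weights, the replicate number as a block and leaving out each array.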

Additional observations from a re-analysis of the deposited data

Results flagged for a closer look

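In 21 of the 378 groups of 4 arrays behind the genes named above, 1 array stood apart from the other 3 by Dixon's criterion. Chance gives about 1 in 20. Replicate 4 of 3 ng was low for CDKN1A (9.10, others 9.39 to 9.43), AKR1B10 (5.94, others 6.18 to 6.21), FAS (8.76, others 9.02 to 9.07), ELOVL2 (4.59, others 5.24 to 5.34), CXCL1 (11.27, others 11.48 to 11.52), YPEL5 (7.48, others 7.74 to 7.78) and MAU2 (6.29, others 6.68 to 6.75). Replicate 4 of 0 ng, the brightest array of its group, was high for IGFBP3 (8.59, others 7.56 to 7.72), FST (10.63, others 10.12 to 10.19), CDK4 (10.68, others 10.21 to 10.28) and KRT5 (12.00, others 11.64 to 11.70).

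In the other arrays the values apart were H2AX 6.98, KIF11 5.79 and MIR96 3.32 in replicate 2 of 3 ng, UHRF1 6.98 in replicate 3 of 3 ng, and TNC 6.95 and VIM 1.93 in replicate 1 of 3 ng. In the uninduced group they were ABHD4 6.30 and CASP10 3.46 in replicate 2, and CSF1R 6.04 and PALMD 3.98 in replicate 1.

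Outside the genes tested above, the 13840 transcript clusters without exactly 1 gene symbol also differed between the doses. As deposited, limma called 1418 of them at 3 ng against 0 ng, 61 up and 1357 down. They are not named here.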

How the results depend on the processing

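The scale moved the counts of calls most. The 276 rises called as deposited became 2834 after quantile normalization, 814 with arrays centred on their medians, 2569 with quantile normalization of the 8 arrays alone and 671 with array weights. The 4228 falls became 2308, 2361, 2149 and 6049 under these settings, in the same order. The median change of all genes, -0.235, was 0.08, -0.01, 0.081 and -0.164 there. Without 1 array at a time the rises ran from 204 to 289 and the falls from 2493 to 4827. After quantile normalization they ran from 2326 to 3003 and from 2004 to 2300. The genes called at 3 ng and in the opposite direction at 5 ng numbered 57 after quantile normalization and 17 as deposited. With the replicate number as a block, whose pairing of the samples was not settled, there were 285 rises, 4511 falls and 14 such genes. After quantile normalization of all arrays 10 named genes that were not called as deposited turned from negative to positive and passed, namely DDB2 (0.27), PPM1D (0.40), PHLDA3 (0.45), RBL2 (0.28), POLB (0.38), ORC4 (0.28), LIG4 (0.34), KRT18 (0.26), RANBP2 (0.25) and TP53BP1 (0.23). With the 8 arrays alone 10 did: DDB2 (0.28), PPM1D (0.41), PHLDA3 (0.45), RBL2 (0.28), POLB (0.39), ORC4 (0.28), LIG4 (0.34), KRT18 (0.26), CD68 (0.28) and ERCC1 (0.18). ENG, called down as deposited, was 0.021 and 0.020 on these scales and was not called. The cause was not tested. No detection calls were used, so changes of genes near the bottom of the range are the least certain.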
